A study of Mus musculus with 12 samples.

Results

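The respiratory chain genes are the protein-coding genes whose mouse symbols begin with Nduf followed by a, b, c, s or v and a digit, with *Sdha* to *Sdhd*, with Uqcr, with Cox4 to Cox8 and with Atp5, together with the protein-coding genes of mitochondrial DNA. The rule used symbols and no measured value, and it gave 97 genes of 35579 with a summed value, 84 encoded in the nucleus and 13 in mitochondrial DNA. The nuclear genes comprised 37 of complex I, 4 of complex II, 8 of complex III, 18 of complex IV and 17 of complex V, and the mitochondrial genes 7, 0, 1, 3 and 2. RNA was sequenced as stranded, poly(A)-selected libraries from WT cells, which were mouse ESCs of the unedited R1 line, and from CIDEA KO cells. The KO cells were a single subclone (19.7) of that line in which CRISPR-Cas9 had deleted the whole *Cidea* locus, so genotype and clone cannot be told apart. Each line was sampled as ESCs kept with serum and LIF (0 h) and as spheroids differentiating without LIF in growth factor-reduced Matrigel for 24 h or 48 h, with 2 libraries in each of the 6 groups and 12 in all. The comparisons ask whether RNA of the respiratory chain changed as ESCs formed spheroids, and whether it differed in cells lacking CIDEA, a protein of the lipid droplet surface.

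Complexes I to IV pass electrons from NADH and succinate to oxygen within the inner mitochondrial membrane. Complex V, the ATP synthase, uses the proton gradient that this electron transfer builds to make ATP. Complexes I, III, IV and V mix subunits from both genomes, whereas complex II is encoded wholly in the nucleus. Naive ESCs are known to respire actively, and the primed state that follows in the epiblast is known to lean on glycolysis.

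Depth was 29.0 to 38.5 M estimated counts per library, and the deletion showed in the libraries, with 20 to 117 *Cidea* counts in each WT library and 0 in each KO library. KO 24 h replicate 1 held counts for 15577 genes, against 17634 to 19825 in the other libraries, and calls at 24 h in KO are given below with and without it. Pluripotent cell markers were high in every library. Their summed level (10 of 10 genes, in TPM, a share of all transcripts scaled by transcript length) moved from 6304 to 6977 at 0 h to 4545 to 5061 at 48 h. By the test described below, 6 of them were lower and 2 higher at 48 h in each genotype (12.5% and 11.1% of all genes in WT, 12.8% and 12.1% in KO). In WT means, *Dppa5a* went from 2619 to 1593 TPM and *Pou5f1* from 1499 to 1089 TPM. *Utf1* rose from 252 to 503 TPM and *Lin28a* from 103 to 203 TPM. The summed TPM of 8 fibroblast markers lay between 6.92 and 24.8, with *Postn* at 0 counts, and that of 8 primitive endoderm markers between 7.83 and 12.9. The summed TPM of 7 mesoderm and primitive streak markers was low and moved without overlap, from 5.85 to 9.002 at 0 h to 11.7 to 14.5 at 48 h. Most of this rise was *Eomes*, from a mean of 3.55 to 9.15 TPM in WT and 3.28 to 8.86 TPM in KO. *Tbx6* (1.47 to 0.526 TPM in WT) and *Kdr* (0.413 to 0.226 TPM in WT) fell. The summed TPM of 8 trophectoderm markers, which also include *Eomes*, moved from 33.0 to 43.5 at 0 h to 45.8 to 63.1 at 48 h. Within this list *Krt18* rose from 6.18 to 19.0 TPM in WT, while *Tfap2c* fell from 21.5 to 4.96 TPM. The part of these shifts in the results below was not tested, and in bulk samples fewer cells of a type and less RNA per cell cannot be told apart. The paper describes the 2 libraries of a group as independent samples and biological replicates, while the labels do not say that they came from separate cultures. The p-values measure the spread between libraries.

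On the TPM scale, RNA of the nuclear members was lower in WT spheroids at 48 h than in ESCs, while that of the mitochondrial members was higher. The summed TPM of the 84 nuclear genes was 23305 and 23352 in the WT libraries at 0 h, 23157 and 22523 at 24 h, and 19177 and 19561 at 48 h. In KO cells it was 22196 and 22645 at 0 h, 22069 and 21944 at 24 h, and 19063.5 and 20796 at 48 h. The 48 h libraries thus lay below all others in each genotype, at 0.830 of the 0 h mean in WT and 0.889 in KO.

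The 13 mitochondrial genes followed another course. Their summed TPM was 72934 and 63444 in WT at 0 h, 51591 and 58434.5 at 24 h, and 97967.5 and 84579 at 48 h. In KO it was 90414.5 and 73253 at 0 h, 50417 and 59566 at 24 h, and 93623 and 80725 at 48 h. Libraries at 24 h were the lowest of each genotype without overlap. At 48 h the WT libraries lay above those at 0 h (1.34-fold in the means), and the KO libraries overlapped with those at 0 h (1.07-fold).

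The mitochondrial sum was therefore 2.72 to 3.13 times the nuclear sum in WT ESCs, 2.23 to 2.59 times at 24 h and 4.32 to 5.11 times at 48 h. In KO cells the ratio was 3.23 to 4.07, 2.28 to 2.71 and 3.88 to 4.91. No test was made on these sums, because members were chosen with results of the data known. With 2 libraries per group, the 0 h spread of the mitochondrial sum in KO (SD 12135) exceeded the difference between its means at 0 h and 48 h (81834 and 87174).

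**Figure D1:**
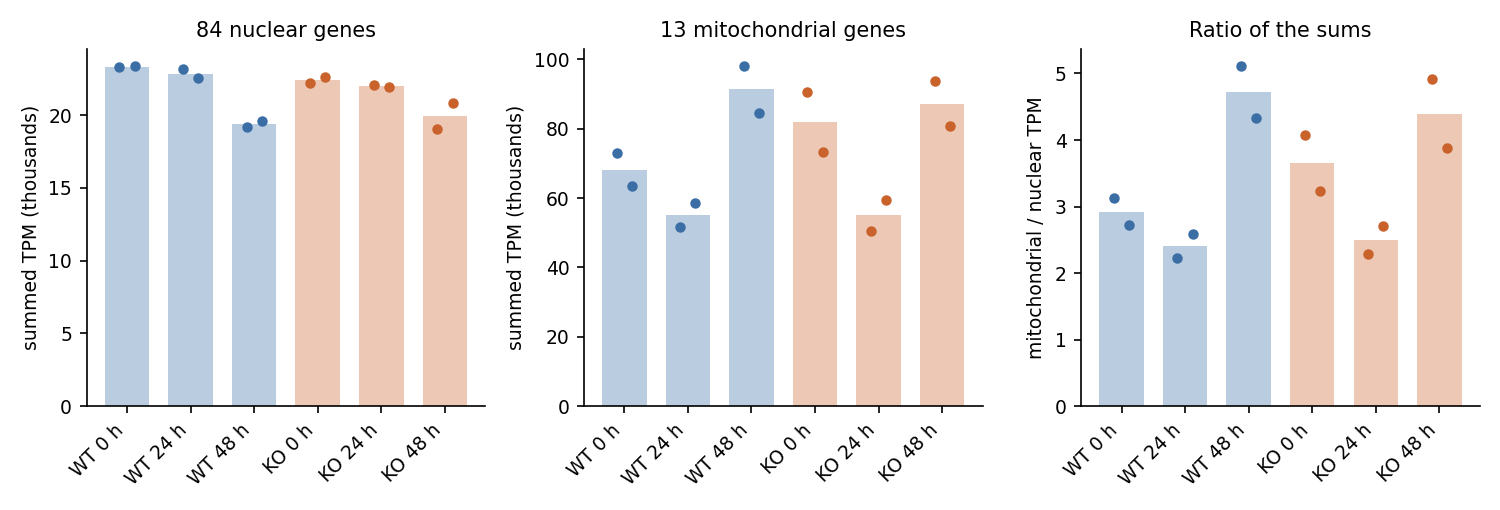
Summed TPM of the nuclear genes (left) and of the mitochondrial genes (middle), and the ratio of these sums (right), in the 6 groups. Bars are group means and points the 2 libraries of each group, with WT in blue and KO in orange; nuclear sums are lowest at 48 h (19177 and 19561 in WT), and mitochondrial sums are lowest at 24 h in both genotypes.

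Levels differed widely between members. By median TPM over the libraries, *Atp5b*, the catalytic beta subunit of the ATP synthase, was highest among the nuclear genes at 1755 TPM, followed by *Cox4i1* at 1050.5, *Cox7c* at 829 and *Cox8a* at 692. The median was at least 100 TPM in 67 nuclear members and under 10 TPM in 6. Among the mitochondrial genes *mt-Atp8* held 19.1 to 28.5% of the mitochondrial TPM and *mt-Co1*, the catalytic subunit of complex IV, a median of 18.3%. *mt-Atp8* is little longer than a fragment, so scaling by length raises its TPM. In WT 0 h replicate 1 it held 23400 of 1009557.5 mitochondrial counts, and the summed TPM carries this weight. As a share of counts, the mitochondrial members at 48 h stood at 1.35 times the 0 h mean in WT and 1.13 times in KO. At 24 h they stood at 0.826 and 0.722 times. The complex I genes *mt-Nd2*, *mt-Nd5* and *mt-Nd6* held at most 2.46% each, and *mt-Nd3* at most 1.17%.

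By gene, 94 members had enough counts to be tested, 81 nuclear and 13 mitochondrial, among 17424 genes. The other members were *Cox8b*, with 0 counts in every library, *Cox6a2*, with at most 4, and *Cox8c*, with at most 8. A member is called where edgeR's quasi-likelihood test gave a p below 0.05 after Benjamini-Hochberg adjustment over all genes tested. At 48 h against 0 h in WT, 42 of the 81 nuclear members were lower and none was higher, and 1 of the 13 mitochondrial members was higher and none lower. Over all genes 12.5% were called lower and 11.1% higher. The median log2 change was -0.31 for the nuclear members, with 76 of 81 negative, 0.42 for the mitochondrial members, with 2 of 13 negative, and 0.02 over all genes.

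The lower genes came from every complex. In complex I 13 of 37 nuclear genes were lower, in complex II 3 of 4, in complex III 6 of 8, in complex IV 11 of 15 tested and in complex V 9 of 17. Medians ran from -0.27 (complex V) to -0.44 (complex II). Apart from *Cox7a1*, *Cox6b2* and *Ndufs5*, the called falls lay between -0.62 and -0.21.

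In complex I, *Ndufs5* and *Ndufb11*, both accessory subunits, were among the 5 nuclear members with the largest called falls. *Ndufs5* stood at 59.2 and 65.5 TPM in WT at 0 h and at 37.7 and 31.8 TPM at 48 h (log2 change -0.88 ± 0.22 SE, adjusted p = 0.00576). *Ndufb11* went from 146 and 146 TPM to 89.0 and 111 TPM (-0.57 ± 0.13, adjusted p = 0.00305). The groups did not overlap for either gene, which restates the values used by the test. *Ndufs5* shares most of its sequence with a pseudogene that is described below. Core subunits of the NADH-oxidizing arm were lower too: the log2 change was -0.49 for *Ndufv1* and -0.28 for both *Ndufv2* and *Ndufs1*.

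Complex II, succinate dehydrogenase, also belongs to the citric acid cycle. *Sdhc*, a membrane anchor, went from 193 and 203 TPM to 149 and 114 TPM in WT (-0.62 ± 0.11, adjusted p = 0.000229). *Sdha*, the flavoprotein that oxidizes succinate, went from 192 and 215 TPM to 148 and 158 TPM (-0.47 ± 0.07, adjusted p = 1.95e-05), and *Sdhb*, the iron-sulfur subunit, from 166 and 162 TPM to 118 and 133 TPM (-0.42 ± 0.09, adjusted p = 0.0015). *Sdhd*, the other anchor, stood at 141 and 154 TPM and then at 129 and 151 TPM, and the test did not call it (-0.10 ± 0.09, adjusted p = 0.492). In *Sdhd* the libraries of the groups overlapped. In *Sdha*, *Sdhb* and *Sdhc* they did not, which restates the values used by the test and adds no support to it.

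In complexes III to V, falls were moderate and shared by many subunits. The complex III genes called lower were *Uqcr10*, *Uqcrh*, *Uqcrq*, *Uqcr11*, *Uqcrfs1* (the Rieske iron-sulfur protein) and *Uqcrc1* (a core protein), between -0.46 and -0.31. In complex IV the ubiquitous subunits *Cox4i1* (-0.40 ± 0.07) and *Cox8a* (-0.43 ± 0.08) were lower, as were *Cox5a*, *Cox5b*, *Cox6a1*, *Cox6b1*, *Cox7a2* and *Cox7b*, and *Cox7a2l*, known for joining complexes III and IV into supercomplexes (-0.56 ± 0.09, adjusted p = 0.000102). In complex V, *Atp5o*, part of the stalk, changed by -0.55 ± 0.09 and *Atp5b* by -0.30 ± 0.05, while *Atp5a1*, the other subunit of the catalytic head, stood at -0.03 and was not called.

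**Figure D2:**
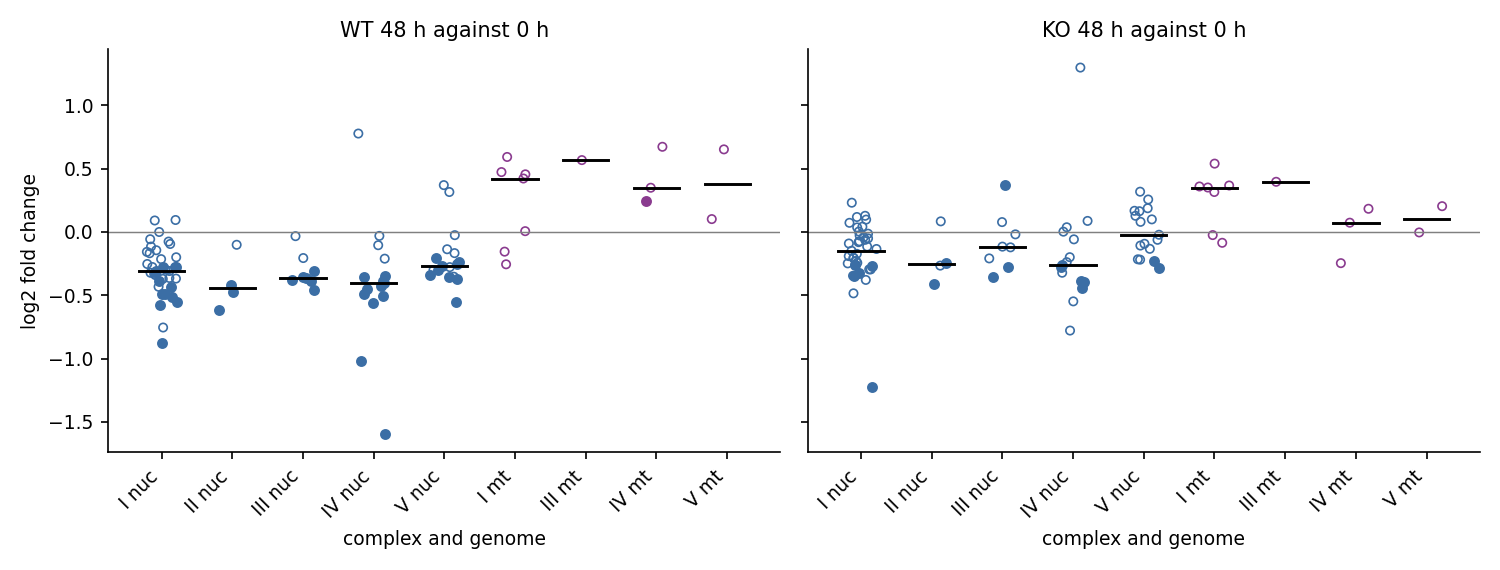
Log2 fold change from 0 h to 48 h of each tested member, by complex and genome (nuc, nuclear in blue; mt, mitochondrial in purple), in WT (left) and KO (right). Filled points passed the test, open points did not, and bars are medians; the nuclear medians in WT lie between -0.44 and -0.27, and the mitochondrial points lie mostly above 0.

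In KO cells fewer members passed the same test. At 48 h against 0 h, 16 nuclear members were lower and 1 was higher, and none of the 13 mitochondrial members was called, against 12.8% of all genes called lower and 12.1% called higher. The median log2 change was -0.13 for nuclear members, with 58 of 81 negative, and 0.20 for mitochondrial ones. Of the members called lower, 15 were so in both genotypes, 15 of 42 in WT and 15 of 16 in KO, among them *Ndufb9*, *Ndufv1*, *Ndufv2*, *Sdha*, *Sdhb*, *Uqcrc1*, *Uqcrq*, *Cox4i1*, *Cox5a*, *Cox6a1*, *Cox7a2l*, *Cox7b*, *Atp5b* and *Atp5d*. The gene called lower in KO and not in WT was *Ndufa4l2*.

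The largest called falls in KO were those of *Ndufa4l2*, *Cox5a*, *Sdha*, *Cox7a2l* and *Cox6a1*. *Sdha* went from 211 and 222 TPM to 164 and 161 TPM in KO (-0.41 ± 0.07, adjusted p = 8.01e-05), and *Cox5a*, a nuclear partner of the catalytic core, from 478 and 528 TPM to 341 and 386 TPM (-0.44 ± 0.09, adjusted p = 0.00109). *Cox7a2l* went from 194 and 229 TPM to 159 and 152 TPM (-0.40 ± 0.09, adjusted p = 0.00249) and *Cox6a1* from 716 and 735 TPM to 476 and 602 TPM (-0.39 ± 0.10, adjusted p = 0.0046). In each of these genes both 48 h libraries lay below both 0 h libraries, which restates the values used by the test and adds no support to it. *Cox4i1*, at -0.26, and *Atp5b*, at -0.23, fell by less.

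These counts depend on single libraries and on transcript length. Counts with a library left out come without the share of all genes called in the same fit. They therefore do not set these members apart from other genes. Without WT 48 h replicate 1, 20 members were called in WT at 48 h, and without WT 0 h replicate 2, 27; without KO 0 h replicate 2 or KO 48 h replicate 1, 4 and 5 were called in KO. With average transcript lengths as offsets the nuclear members called lower were 21 in WT and 6 in KO, while their median stayed at -0.31 and was -0.16, and the genes called lower over the whole table went from 2180 to 1338 in WT. The nuclear members are short, with a median effective length of 520 bases against 2166 in genes with at least 120 counts in all. The gap between length and effective length of long transcripts, a measure of fragment length, was 174 and 187 bases in WT at 0 h, 182 and 194 bases in WT at 48 h and 179.8 to 187 bases in the KO groups, and its part in the result was not tested.

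Whether the 48 h change differed between the genotypes was tested as an interaction. No member was called, and over all genes 0.0402% were. The median interaction was 0.17 for the nuclear members, that is a smaller fall in KO, with 10 of 81 negative, and 17 members had an unadjusted p under 0.05 (1003 of 17424 genes). Under DESeq2, *Uqcr11* and *Atp5l* were called. *Uqcr11*, a small subunit of complex III, went from 316 and 317 TPM to 230.3 and 279.7 TPM in WT and from 231 and 267 TPM to 293 and 329.5 TPM in KO, so that it was called lower in WT (-0.37 ± 0.12, adjusted p = 0.034) and higher in KO (0.37 ± 0.12, adjusted p = 0.0319). The interaction of *Uqcr11* was 0.74 ± 0.17 (adjusted p = 0.187), and that of *Atp5l* 0.53 ± 0.13 (adjusted p = 0.257). With length offsets *Uqcr11* was called in neither genotype. The WT call was also lost without either WT 0 h library or WT 48 h replicate 1, and the KO call without either KO 0 h library, KO 48 h replicate 2 or either WT 24 h library.

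At 24 h nuclear members had changed less. Counts under alternatives in this paragraph come without the share of all genes called in the same setting, and do not set these members apart from other genes. In WT 11 nuclear members were lower and none higher, with 7.47% of all genes lower and 7.54% higher, and in KO 9 were lower and 2 higher, with 9.33% and 9.24% of all genes. The nuclear median was -0.10 in WT and -0.11 in KO. Without KO 24 h replicate 1, 12 nuclear members were lower and none higher in KO, with a median of -0.08. With transcript lengths as offsets 2 nuclear members were lower in each genotype and none was higher, and limma on log2(TPM + 1) called 3 lower in WT and 2 lower and 2 higher in KO. *Sdha* was called lower already at 24 h in both genotypes (-0.29 and -0.30), as were *Cox7a2l* (-0.46 and -0.51), *Ndufb9* (-0.41 and -0.32) and *Ndufa4l2*. *Cox7a2l* kept its calls in both genotypes in all alternatives run, and *Ndufa4l2* lost its WT call without WT 24 h replicate 1. *Sdha* and *Ndufb9* lost theirs in both genotypes with length offsets, in WT without WT 0 h replicate 2 or WT 24 h replicate 1, and in KO without KO 0 h replicate 2. With limma *Sdha* lost both calls and *Ndufb9* the KO call, which it also lost without KO 0 h replicate 1 or KO 24 h replicate 2. In KO *Uqcr11* (0.43) and *Atp5e* (0.48), the epsilon subunit of the ATP synthase, were higher; both were named after their values were seen, and both lost the call without KO 24 h replicate 1 or KO 0 h replicate 1. Leaving out WT 24 h replicate 1 left 1 member called in WT, leaving out WT 0 h replicate 2 left 3 and WT 24 h replicate 2 left 7, and leaving out either KO 24 h library gave 17. In KO, 4 were called without KO 0 h replicate 1 and 7 without KO 0 h replicate 2. The interaction at 24 h called no member (3 with unadjusted p under 0.05; DESeq2 also 0), against 0.0115% of all genes.

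The 13 mitochondrial genes are transcribed as long precursors from both strands and cut into single messages, and all but *mt-Nd6* lie on the same strand. At 24 h every one of the 13 had a negative log2 change in WT and in KO, with medians of -0.31 and -0.42. In WT none was called (DESeq2 called 3, *mt-Atp8*, *mt-Nd5* and *mt-Nd6*, and 11 were called when genes with low counts were kept in the table). Here and below, such counts under alternatives come without the share of all genes called in the same setting. With low counts kept, edgeR gave very small p-values to mitochondrial genes. The *mt-Co2* interaction at 24 h had an unadjusted p of 2.96e-33 there, and the main fit did not call it. In KO 4 were called, *mt-Co2* (-1.57 ± 0.39, adjusted p = 0.0388), *mt-Atp8* (-0.90 ± 0.22, adjusted p = 0.0338), *mt-Atp6* (-0.81 ± 0.22, adjusted p = 0.0494) and *mt-Co3* (-0.26 ± 0.07, adjusted p = 0.00933), all subunits of complexes IV and V. DESeq2 called 6 lower in KO, these and *mt-Nd5* and *mt-Nd6*, and 12 were lower when genes with low counts were kept. None of the 4 calls held without KO 24 h replicate 1, where the 13 changes were still negative with a median of -0.39.

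*mt-Atp8*, a small membrane subunit of the ATP synthase, had 18060 and 16709 TPM in WT at 0 h, 9866 and 13132 TPM at 24 h, and 23516 and 18470 TPM at 48 h. In KO it had 22078 and 20852.5 TPM, then 10681 and 13463.5 TPM, then 22299.7 and 20156 TPM. The 24 h libraries lay below the others in both genotypes. *mt-Nd5* and *mt-Nd6*, complex I genes that lie next to each other on opposite strands, had log2 changes of -0.71 ± 0.21 and -0.62 ± 0.22 at 24 h in WT and of -0.76 ± 0.21 and -0.63 ± 0.22 in KO, and neither was called. *mt-Nd1*, *mt-Nd2*, *mt-Nd4*, *mt-Nd4l* and *mt-Cytb* lay between -0.42 and -0.17.

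At 48 h in WT, *mt-Co3* was called higher (0.25 ± 0.07, adjusted p = 0.0108). It went from 9991 and 9243 TPM to 12215 and 11218 TPM, without overlap. The change ran from 0.18 to 0.32 over 20 alternatives. The call was lost with limma, without WT 0 h replicate 2 or WT 48 h replicate 1, and with its nuclear copy, described below, added. Changes in other genes were larger but varied more between libraries: *mt-Nd1* stood at 0.59 ± 0.19 (adjusted p = 0.0718), *mt-Atp6* at 0.65 ± 0.22 (adjusted p = 0.0839) and *mt-Cytb*, the complex III subunit, at 0.57 ± 0.21 (adjusted p = 0.106). *mt-Co1* stood at 0.35 ± 0.15, *mt-Nd4* at 0.46, *mt-Nd4l* at 0.47 and *mt-Nd2* at 0.42. *mt-Nd5* (0.01) and *mt-Nd6* (-0.16) stood near their 0 h level. DESeq2 called 4 genes higher, *mt-Nd1*, *mt-Cytb*, *mt-Co3* and *mt-Atp6*, and 9 were called when genes with low counts were kept. In KO *mt-Nd1* stood at 0.54 ± 0.19 (adjusted p = 0.0936), *mt-Cytb* at 0.40 ± 0.21 and *mt-Co3* at 0.07 ± 0.07, and no gene was called. DESeq2 called *mt-Nd1* higher in KO, and when genes with low counts were kept 8 were higher and 1, *mt-Co2*, was lower.

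**Figure D3:**
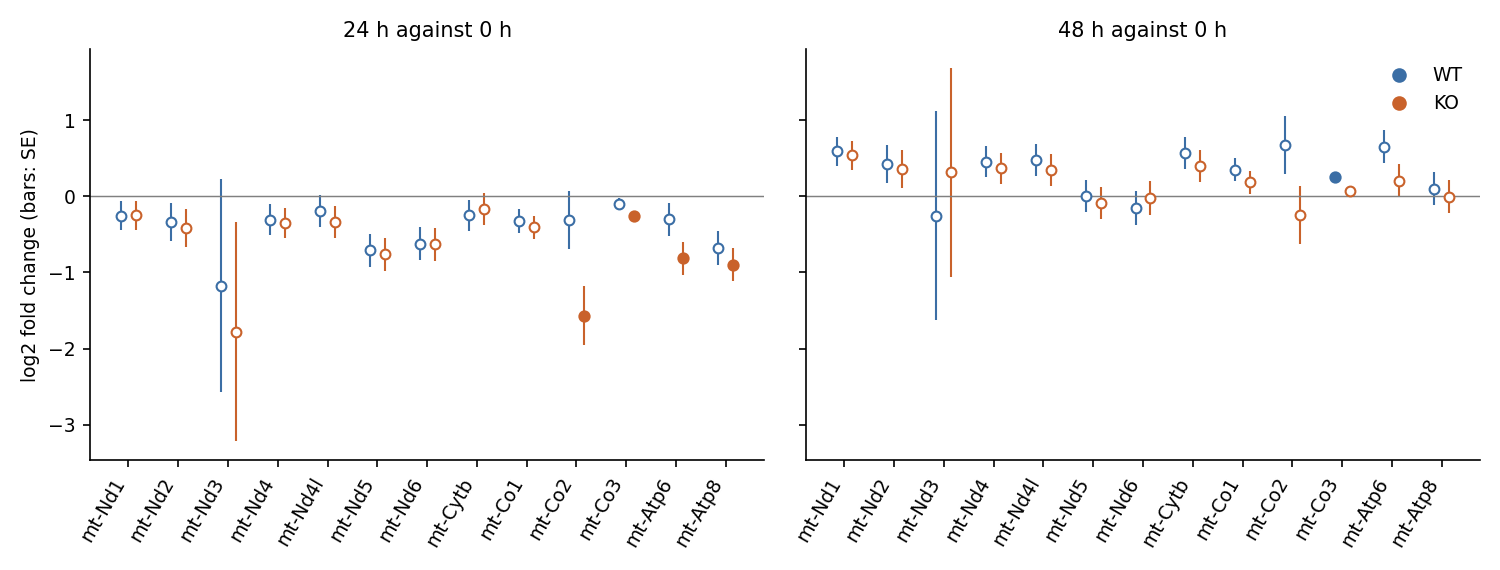
Log2 fold change of the 13 mitochondrial genes at 24 h (left) and 48 h (right) against 0 h, with WT in blue and KO in orange. Points are fitted changes, bars their SE, and filled points passed the test; all 13 lie below 0 at 24 h in both genotypes, and *mt-Nd3* has the widest SE (1.37 to 1.44).

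Part of the mitochondrial genome also exists as near-identical copies in the nucleus. A search of annotated pseudogenes for at least 95% identity over at least 200 aligned bases found copies of 9 mitochondrial members, those that received counts lying mainly on chromosome 1, chr1:24612775-24616197 in GRCm38. *Gm28661* matched *mt-Co2* without a difference over 681 bases, *Gm10925* matched *mt-Atp6* over 678 bases and *Gm28437* matched *mt-Co3* over 783 bases, both at 100% identity, whereas *Gm28438* matched *mt-Nd3* at 99.7%. The copy *Gm28438* differs from *mt-Nd3* by T3C over 345 bases, counted from base 1 of the *mt-Nd3* coding sequence (chrM:9459-9806, plus strand). The starts of both transcripts, from the GENCODE M21 transcript set, show how little separates reads of the gene from reads of the copy; the differing base is in capitals.
mt-Nd3: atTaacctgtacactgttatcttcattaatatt
Gm28438: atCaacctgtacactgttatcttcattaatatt
Reads that fit both are divided by the quantifier, and a member's value alone then depends on that division. The values above are those of the members alone.

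The division differed from library to library. For *mt-Co2* the copy received 46.2 and 56.2% of the combined counts in WT at 0 h, 24.0 and 38.3% in KO at 0 h, and 78.5 and 60.6% in KO at 24 h. For *mt-Nd3* it received 45.4% to 76.2% in all libraries but KO 24 h replicate 1 and WT 24 h replicate 1 (78.3%), and in KO 24 h replicate 1 it received 100%, so that *mt-Nd3* is listed at 0 there. For *mt-Atp6* the share ran from 4.63% to 41.8%. Over all mitochondrial members the copies held 6.39 to 17.3% of the combined counts, with the highest share in KO 24 h replicate 1.

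**Figure D4:**
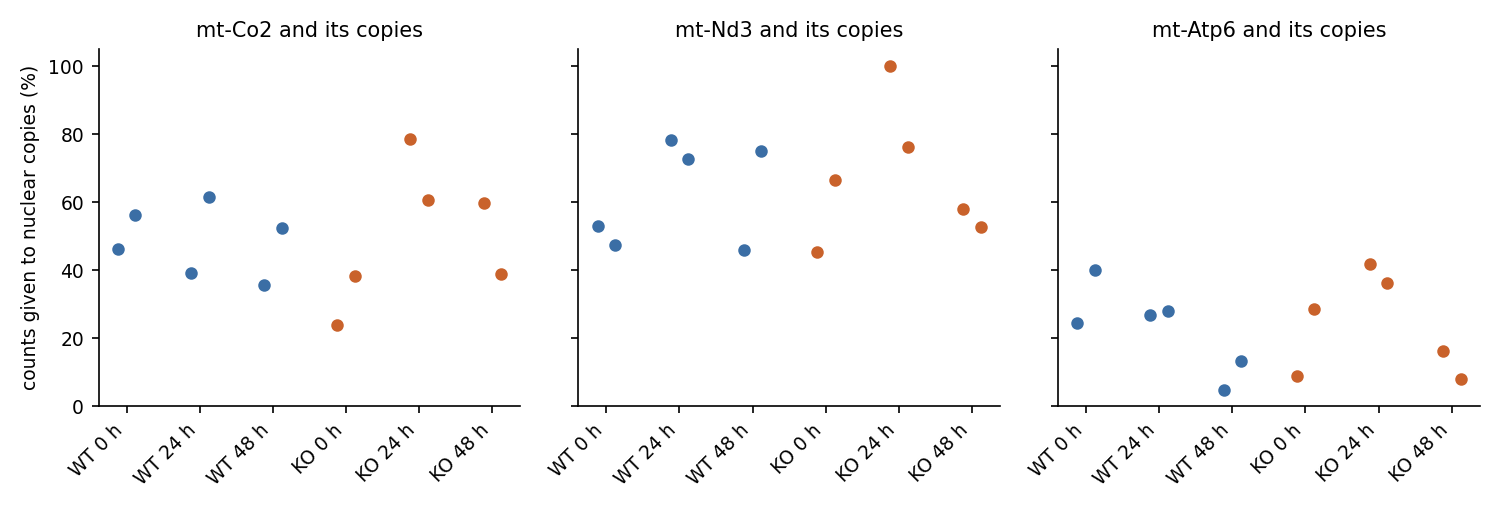
Share of the combined counts of *mt-Co2* (left), *mt-Nd3* (middle) and *mt-Atp6* (right) that was given to the nuclear copies, in percent, per library, with WT in blue and KO in orange. KO 24 h replicate 1 is the highest library in each panel, at 78.5, 100 and 41.8%.

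With counts of the copies added to their members, a step chosen after the data were seen, the values of 3 genes moved most. The change of *mt-Co2* at 24 h in KO went from -1.57 to -0.37 ± 0.16 (adjusted p = 0.177) and that of *mt-Nd3* from -1.78 ± 1.44 to -0.00 ± 0.15. Combined *mt-Co2* counts were 117859 and 100651 in WT at 0 h and 148326 and 182889 at 48 h (0.48 ± 0.16, adjusted p = 0.0731), and *mt-Co3* at 48 h in WT stood at 0.18 ± 0.07 (adjusted p = 0.0783). *mt-Atp6* was then called lower at 24 h in both genotypes, with -0.40 ± 0.11 each (adjusted p = 0.0443 in WT and 0.0374 in KO). At 48 h in WT *mt-Atp6* with its copy stood at 0.23 ± 0.11 (adjusted p = 0.189). The summed TPM of the mitochondrial members with their copies was 1.29 times the 0 h mean at 48 h in WT and 1.10 times in KO, and 0.817 and 0.761 times at 24 h. In KO it was 100188 and 85473 TPM at 0 h against 66841 TPM in KO 24 h replicate 1 and 74454 TPM in replicate 2. The direction at each time was thus the one seen without copies, and the fall at 24 h in KO was smaller.

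Some nuclear members share reads in the same way. Pseudogenes held 89.9 to 97.3% of the combined counts of *Atp5g2* (*Gm10175*), 71.8 to 86.5% of *Ndufb4* (*Ndufb4c*), 50.6 to 68.4% of *Ndufs5* (*BC002163*), 45.6 to 56.9% of *Ndufa12* (*Gm15920*), 14.8 to 20.7% of *Cox7a2l* and 9.27 to 14.8% of *Atp5l*. With the copies added, *Ndufb4* was called lower in all 4 comparisons with 0 h, from -0.55 to -0.44, *Ndufs5* at 48 h in WT stood at -0.55 ± 0.15 (adjusted p = 0.00965), and *Cox7a2l* kept its calls at -0.54 in WT and -0.43 in KO. The nuclear members called lower at 48 h in WT were then 43.

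Members also overlap within mitochondrial DNA. *mt-Atp8* (chrM:7766-7969) and *mt-Atp6* (chrM:7927-8607) share 43 bases, and *mt-Nd4l* (chrM:9877-10173) and *mt-Nd4* (chrM:10167-11544) share 7, all on the plus strand. Both pairs are known to be carried on shared messages, so their counts are not independent. The shared bases are in capitals in these stretches, chrM:7867-8029 and chrM:10137-10203. How reads over them were assigned was not tested.
mt-Atp8 to mt-Atp6: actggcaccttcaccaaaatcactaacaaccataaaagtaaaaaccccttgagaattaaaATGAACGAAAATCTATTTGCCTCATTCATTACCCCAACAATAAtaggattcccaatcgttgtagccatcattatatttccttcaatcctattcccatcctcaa
mt-Nd4l to mt-Nd4: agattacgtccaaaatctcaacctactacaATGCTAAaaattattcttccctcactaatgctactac
*mt-Nd4l* and *mt-Nd4* changed by like amounts (0.47 ± 0.21 and 0.46 ± 0.20 at 48 h in WT). As members alone, *mt-Atp8* (0.10 ± 0.22) and *mt-Atp6* (0.65 ± 0.22) stood further apart. The *mt-Atp6* value depends on the division of reads with its copy, which received 24.4 and 40.0% in WT at 0 h and 4.63 and 13.4% at 48 h. With the copy added, *mt-Atp6* stood at 0.23 ± 0.11, nearer to *mt-Atp8*. The difference within a pair was not tested.

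Several subunits exist as alternative isoforms, and the libraries held the ubiquitous forms almost throughout. *Cox4i1* made up at least 99.7% of Cox4 TPM, *Cox6a1* at least 99.9% of Cox6a and *Cox8a* at least 99.8% of Cox8. *Cox4i2*, the lung form, and *Cox7b2* reached 3.75 and 9.93 TPM at most. Of the c-ring genes, which encode the same mature protein, *Atp5g3* made up 48.3 to 56.9% and *Atp5g1* 38.9 to 47.7% of TPM as deposited. All c-ring shares depend on the division of reads between *Atp5g2* and its copy *Gm10175*, which held most of their combined counts.

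Some tissue-restricted isoforms were present in ESCs and fell in spheroids. The low-level *Cox7b2* went the other way without being called. Its mean share of Cox7b TPM moved from 0.747% at 0 h to 1.82% at 48 h in WT and from 0.442% to 1.24% in KO. *Cox7a1*, the heart and muscle form, had 35.3 and 55.4 TPM in WT at 0 h, 15.8 and 27.0 TPM at 24 h, and 12.5 and 19.9 TPM at 48 h (-1.60 ± 0.47 at 48 h, adjusted p = 0.0178). In KO it had 40.1 and 33.9 TPM at 0 h, 10.7 and 27.6 TPM at 24 h, and 20.1 and 21.8 TPM at 48 h (-0.78 ± 0.46, adjusted p = 0.265). Its share of Cox7a TPM was 12.05 to 17.4% at 0 h and 5.86 to 8.59% at 48 h over both genotypes, and the 0 h libraries lay above all others in each genotype.

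*Cox6b2*, the testis form, had 91.0 and 75.1 TPM in WT at 0 h and 41.7 and 46.3 TPM at 48 h (-1.02 ± 0.21, adjusted p = 0.00102). In KO it had 99.2 and 95.2 TPM at 0 h and 62.1 and 86.6 TPM at 48 h (-0.32 ± 0.20, adjusted p = 0.297). KO against WT at 48 h stood at 0.85 ± 0.21 (adjusted p = 0.0726; called by DESeq2). The other Cox6b isoform, *Cox6b1*, was lower at 48 h in WT (-0.49 ± 0.10) and stood at -0.06 in KO.

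*Ndufa4l2*, a paralog of *Ndufa4* known to be induced by hypoxia, had the largest called fall at 24 h. It had 28.1 and 33.7 TPM in WT at 0 h, 4.74 and 11.6 TPM at 24 h, and 19.7 and 15.8 TPM at 48 h (-1.60 ± 0.37 at 24 h, adjusted p = 0.00536; -0.75 ± 0.37 at 48 h, adjusted p = 0.156). In KO it had 19.9 and 26.4 TPM, 9.57 and 5.99 TPM, and 13.4 and 13.8 TPM (-2.44 ± 0.39 at 24 h, adjusted p = 0.000134; -1.23 ± 0.37 at 48 h, adjusted p = 0.0188). The 24 h libraries were below all others in both genotypes, and the change at 24 h in KO ran from -2.95 to -1.48 over 21 alternatives, with the call kept in each. *Ndufa4* itself, counted here with complex I by its symbol although its protein is now assigned to complex IV, stood at -0.04 and -0.07 at 24 h and was lower at 48 h in WT (-0.39 ± 0.10).

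KO and WT cells differed in few members. Over all times 6 of 94 were lower in KO and none was higher, against 2.84% of all genes lower and 2.19% higher: *Uqcrh* (-0.25 ± 0.06, adjusted p = 0.009), *Cox6b1* (-0.23 ± 0.06, adjusted p = 0.0242), *Cox7a2l* (-0.22 ± 0.05, adjusted p = 0.0158), *Uqcr10* (-0.22 ± 0.06, adjusted p = 0.0425), *Cox6c* (-0.17 ± 0.05, adjusted p = 0.0314) and *Atp5g3* (-0.16 ± 0.04, adjusted p = 0.0287). At 0 h *Uqcrh*, *Atp5g3* and *Atp5l* were lower (0.987% of all genes lower and 0.275% higher), at 24 h *Uqcrh* (1.02% and 0.448%), and at 48 h no member was called (9 at an unadjusted p under 0.05; DESeq2 called *Cox6b2* higher; 0.671% of all genes in either direction). The 13 mitochondrial members had a median difference of 0.04 over all times, and none was called.

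*Uqcrh*, the hinge protein of complex III, had 423 and 427 TPM in WT ESCs against 330 and 333 TPM in KO ESCs (-0.41 ± 0.10, adjusted p = 0.041). At 24 h it had 413 and 415 TPM against 284 and 353 TPM (-0.41 ± 0.10, adjusted p = 0.0329), and at 48 h 331 and 344 TPM against 359 and 322 TPM (0.06). The genotypes were apart at 0 h and 24 h and overlapped at 48 h. *Atp5l*, the g subunit of the ATP synthase, showed 448 and 476 TPM against 339.9 and 351 TPM at 0 h (-0.44 ± 0.09, adjusted p = 0.0201), and *Atp5g3*, a c-ring gene, 707 and 694 TPM against 575 and 566 TPM (-0.34 ± 0.07, adjusted p = 0.0233). At 48 h *Atp5l* stood at 0.09 and *Atp5g3* at -0.01.

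Each of these genotype calls was lost with transcript lengths as offsets and with limma on log2(TPM + 1), where no member was called. The count over all times was 1 without KO 0 h replicate 1, 2 without KO 0 h replicate 2, WT 24 h replicate 2 or KO 48 h replicate 1, and 3 without WT 0 h replicate 2, WT 24 h replicate 1, WT 48 h replicate 1 or KO 48 h replicate 2. The calls at 0 h came to 0 without WT 0 h replicate 2 or either KO 0 h library, and to 6 without either KO 24 h library. *Uqcrh* at 24 h lost its call without either WT 24 h library or without KO 24 h replicate 1, the library with fewest genes, and 7 members were called at 24 h without KO 24 h replicate 2. The direction stayed lower in KO in all 21 alternatives for each called gene.

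**Figure D5:**
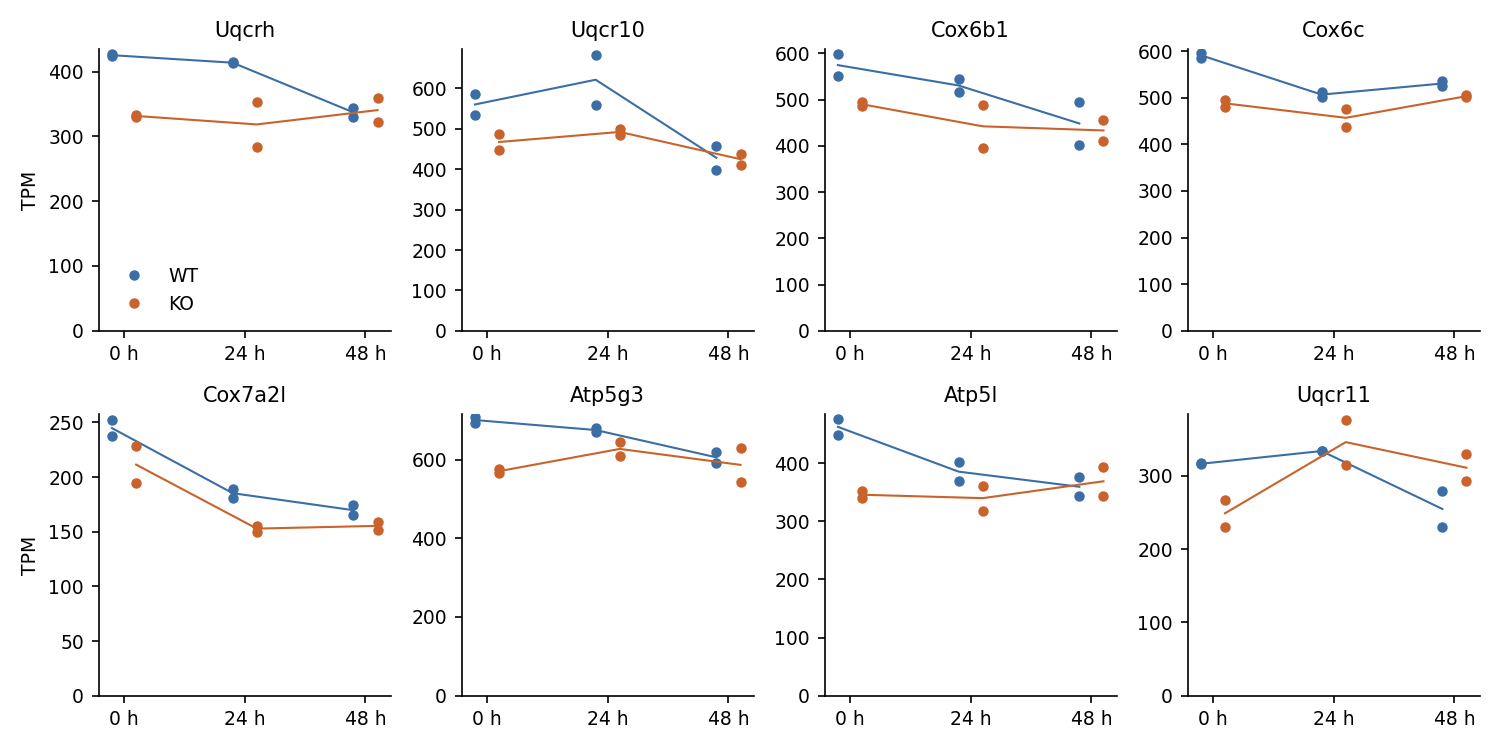
TPM (vertical axes, from 0) of 8 members at 0 h, 24 h and 48 h, with WT in blue and KO in orange; points are libraries and lines join group means. In *Uqcrh*, *Atp5g3* and *Atp5l* the KO libraries lie below the WT libraries at 0 h and overlap with them at 48 h, and *Uqcr11* runs in opposite directions from 0 h to 48 h.

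Promoters of respiratory chain genes are known to carry sites for NRF1 and for GABPA and YY1. Of the 84 nuclear members, 68 had an entry in RefSeq's promoter sequences (GRCm38.p6), which span 300 bases, 250 before and 50 after the annotated start. On either strand, the NRF1 motif, GCGCA followed by any base and GCGC, was found in 25.0% of the 68 members, against 5.19% of all 27025 genes with such a sequence and 10.5% of those with at least 120 counts in all. The YY1 motif AAGATGGCG was found in 10.3% (1.64% and 3.18%) and the GABPA motif CCGGAAGTG in 2.94% (2.25% and 4.41%). A match describes letters and not binding. The 11 members lower in both genotypes at 48 h that had a sequence held the NRF1 motif in 3 and neither of the other motifs. That is 27.3%, near the share of all nuclear members. Those 3 are shown, with the motif in capitals, as examples of it in members lower in both genotypes: *Sdha* at chr13:74350191-74350490 (minus strand), *Cox6a1* at chr5:115348909-115349208 (minus strand) and *Uqcrc1* at chr9:108936398-108936697 (plus strand).
Sdha: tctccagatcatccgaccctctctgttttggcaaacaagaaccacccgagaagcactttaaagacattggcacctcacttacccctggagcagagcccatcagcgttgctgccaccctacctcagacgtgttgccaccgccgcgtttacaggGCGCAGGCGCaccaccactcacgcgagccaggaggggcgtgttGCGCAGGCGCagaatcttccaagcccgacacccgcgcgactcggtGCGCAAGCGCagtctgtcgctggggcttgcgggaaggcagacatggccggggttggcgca
Cox6a1: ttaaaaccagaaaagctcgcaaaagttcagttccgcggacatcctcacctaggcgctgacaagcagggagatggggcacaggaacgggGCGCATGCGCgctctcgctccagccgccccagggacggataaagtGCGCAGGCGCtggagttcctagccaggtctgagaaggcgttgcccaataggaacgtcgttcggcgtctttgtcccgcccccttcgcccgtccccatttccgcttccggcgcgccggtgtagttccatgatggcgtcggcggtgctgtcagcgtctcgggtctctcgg
Uqcrc1: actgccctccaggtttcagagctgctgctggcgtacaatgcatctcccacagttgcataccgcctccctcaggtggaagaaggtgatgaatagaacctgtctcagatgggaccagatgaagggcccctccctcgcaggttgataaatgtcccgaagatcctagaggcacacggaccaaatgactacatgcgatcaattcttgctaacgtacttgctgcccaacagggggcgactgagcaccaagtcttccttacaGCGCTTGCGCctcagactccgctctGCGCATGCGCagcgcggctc
Of these factors *Yy1* was called in WT and none in KO: at 48 h against 0 h in WT, *Nrf1* stood at -0.15, *Gabpa* at -0.11 and *Yy1* at 0.23, and in KO at -0.03, -0.12 and 0.00.

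Genes that build or run the same machinery did not all move with the subunits. The counts of these lists at 48 h stand against 12.5% of all genes lower and 11.1% higher in WT, and 12.8% and 12.1% in KO, and several lie near or below those shares. Of 15 assembly factors of complex I, 4 were lower at 48 h in WT and 2 in KO, with *Ndufaf5*, which modifies a core subunit, at -0.83 and -0.88 and *Nubpl*, an iron-sulfur carrier, at -0.64 in WT. Of 31 assembly factors of complexes II to V, 2 were lower and 1 higher in each genotype, with *Bcs1l*, which inserts the Rieske protein into complex III, at -0.75 and -0.74, *Cox15*, a heme enzyme for complex IV, at -0.51 and -0.39, and *Sco2*, a copper chaperone, called at 1.19 in WT and at -0.20, not called, in KO. *Cycs* (cytochrome c), *Cyc1* and *Ndufab1*, respiratory chain genes outside the symbol rule, were not called in either genotype. Of 13 citric acid cycle genes, 5 were lower and 1 higher in WT and 4 and 2 in KO, with *Idh3b* at -0.55 and -0.38, *Idh3g* at -0.40 and -0.43, and *Suclg2* higher at 0.22 and 0.43.

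Genes that maintain and express mitochondrial DNA are read against the same shares. Of 16 genes of its replication and transcription, 4 were higher and 2 lower in each genotype at 48 h. *Ssbp1*, which coats single-stranded mitochondrial DNA, was higher (0.69 and 0.41), as was *Mgme1*, a nuclease of its replication (0.47 and 0.38). *Polrmt*, the mitochondrial RNA polymerase, was lower (-0.40 and -0.45), as was the protease *Lonp1* (-0.27 and -0.28). *Tfam*, which packages and transcribes mitochondrial DNA, stood at 0.01 and 0.14 and was not called. Of 18 tested genes of mitochondrial RNA processing and stability, 2 were higher and 3 lower in WT and 3 and 1 in KO, with *Fastkd1* at -0.62 and -0.73, and *Slirp*, which stabilizes mitochondrial messages, lower in WT (-0.36). *Elac2* (0.36 in both) and *Tbrg4* (0.29 and 0.42) were higher.

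Of 78 mitochondrial ribosomal protein genes, 5 were higher and 3 lower in WT and 14 higher and none lower in KO, against 11.1% of all genes higher and 12.5% lower in WT and 12.1% and 12.8% in KO, with a median of -0.00 in WT and 0.09 in KO. *Mrpl18* stood at 0.48 and 0.60 and *Mrpl49* at 0.47 and 0.49, both called, while *Mrps18a* (-0.47) and *Mrpl2* (-0.29) were lower in WT. Of 16 tested regulators of respiratory genes, 4 were higher and 2 lower in WT and 3 and 2 in KO. *Esrrb*, a nuclear receptor of naive cells, fell most in both (-2.43 and -2.87), and *Sirt1*, a deacetylase, was lower at 48 h (-1.04 and -1.08) and lower in KO than in WT over all times (-0.71). *Lin28b* (1.05 and 0.94) and *Lin28a* (0.95 and 1.58), RNA-binding proteins, were higher.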

How the data were processed

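Per the submitters' processing notes the authors used Trimmomatic 0.33 for trimming and kallisto 0.43.1 for quantification, and deposited an estimated count and a TPM value (scaled to transcript length and to the same total per library) for 115270 transcripts in each of 12 libraries; the transcript set and strand setting are not given in the sources used here. Poly(A) selection can miss messages with short tails, such as those of mitochondria. Transcripts were matched by identifier to GENCODE M21 (98.5% matched; the rest held 0.659 to 0.709% of counts) and summed per gene, and 2 identifiers of Atp5o were merged. The summed counts were rounded and fitted in edgeR 4.0.16 (R 4.3.3; TMM, filterByExpr, robust quasi-likelihood test, 1 mean for each of 6 groups, BCV 0.311), with Benjamini-Hochberg adjustment over 17424 genes and a threshold of 0.05. A floor of 3 counts was 0.0784 to 0.104 CPM, for counting error only. Replicates differed far beyond sampling noise. Same-numbered replicates of the genotypes did not deviate together (correlations 0.00, 0.05 and -0.01), so the numbers were not used to pair libraries. With 2 libraries in a group this cannot exclude that same-numbered libraries were prepared together. Members and lists were chosen with earlier results of these data known. Genes named are all mitochondrial members, the Sdh genes, the isoform sets, the 5 largest called rises and falls at 48 h and over all times, members called between genotypes and up to 2 called genes each way of other lists; further genes were named after their values were seen. Alternatives were DESeq2 1.42.0, its size factors in edgeR, 2 other filters, the table without mitochondrial genes, transcript lengths as offsets, limma 3.58.1 on log2(TPM + 1), a replicate block, leaving out each library and, after seeing the data, adding pseudogene copies. Values of 1 member are not reported here by name.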

Additional observations from a re-analysis of the deposited data

How the results depend on the processing

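Of 96 called results of single members, none reversed under any alternative run and 16 kept the call in all of them. The counts of members below come without the share of all genes called under the same alternative. With transcript lengths as offsets the members called were 4 in WT and 8 in KO at 24 h, 26 and 7 at 48 h, and 0 between genotypes at 0 h, 24 h and over all times; limma on log2(TPM + 1) called 3 in WT and 8 in KO at 24 h and 0 in the same genotype comparisons. With no filter on low counts 23 were called in WT at 24 h, 26 in KO at 48 h, 7 at 0 h, 7 at 24 h, 3 at 48 h and 10 over all times between genotypes, and 3 and 5 in the interactions at 24 h and 48 h. DESeq2 called 6, 3, 1 and 10 between genotypes (0 h, 24 h, 48 h, all times) and 2 in the 48 h interaction. A minimum of 10 counts in every library gave 5 at 0 h and 3 at 24 h between genotypes, and DESeq2 size factors 2 at 24 h. With a replicate block 2 were called between genotypes at 24 h, 45 in WT and 16 in KO at 48 h, and 13 and 12 at 24 h. Same-numbered libraries showed no shared deviation.

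Leaving out 1 library at a time gave 1 to 17 called members in WT and 4 to 18 in KO at 24 h, 20 to 51 and 4 to 24 at 48 h, 0 to 6, 0 to 7, 0 to 1 and 1 to 8 between genotypes (0 h, 24 h, 48 h, all times), and 0 to 1 in each interaction; where a group is left with 1 library, it is assumed to vary like the others. The log2 ratio of summed nuclear TPM at 48 h against 0 h in WT was -0.27, -0.28 to -0.25 without 1 library, -0.23 with TPM rescaled over nuclear genes and -0.30 with protein-coding transcripts alone; in KO it ran from -0.23 to -0.11. The mitochondrial log2 ratio ran from 0.31 to 0.52 in WT and from -0.05 to 0.25 in KO, so its direction in KO rests on single libraries. Between genotypes the nuclear ratio ran from -0.04 to -0.00 and the mitochondrial ratio from 0.01 to 0.11. Each spread rests on 2 libraries per group.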
